A study of Mus musculus with 12 samples.

Results

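The genes described here are *Cdh1*, *Cdh2*, *Epcam*, *Snai1*, *Snai2*, *Zeb1*, *Zeb2*, *Vim*, *Twist1* and *Twist2*, the cadherins of the E- to N-cadherin switch with an epithelial adhesion gene, an intermediate filament gene and 6 transcription factors of the epithelial-mesenchymal transition (EMT). They were chosen by name, knowing that *Cdh1* and *Cdh2* differed between the genotypes on these arrays. The 10 genes were 10 of 34836 gene names on the array and were read by 13 of its 55681 probes, 11 of which passed the filter on dim probes. Each of the 10 genes kept its brightest probe, so all 10 were tested.

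RNA came from mouse embryonic stem (ES) cells derived from the EB3 line and was hybridized to 12 1-colour Agilent arrays, 3 for each of 4 groups. The groups were *Sox7* (+/-) and *Sox7* (-/-) ES cells cultured without dexamethasone (Dex), and the XEN-like cells obtained from each genotype at day 4 with Dex. XEN cells are stem cells of the extraembryonic endoderm. All 4 groups carried Gata6GR, in which Gata6 is fused to the ligand-binding domain of the human glucocorticoid receptor and is brought to the nucleus by Dex. In all 4 groups at least 1 *Sox7* allele had its coding exons replaced by a puromycin resistance cassette, and no wild type cells were compared. The *Sox7* (-/-) cells were selected from the *Sox7* (+/-) line with high-dose puromycin, so each genotype was represented by a clonally derived line and genotype and line cannot be told apart. No array measured cells without Gata6GR, so effects of Dex on the endogenous receptor and of Gata6GR cannot be told apart either. The labels do not say whether the 3 arrays of a group came from separate cultures, and the source names of the 3 *Sox7* (+/-) ES arrays carry the same replicate number although their titles are numbered 1 to 3. The p-values therefore measure only the spread between these samples, which may be technical.

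E-cadherin (*Cdh1*) joins epithelial cells at adherens junctions, and in an EMT it is replaced by N-cadherin (*Cdh2*) while cells loosen from their neighbours. Transcription factors of the Snail, Zeb and Twist families drive this change, in part by binding E-box motifs in the promoters of epithelial genes and repressing them. In the mouse embryo the primitive endoderm gives rise to the epithelial visceral endoderm and to the parietal endoderm, whose cells are mesenchymal and migratory. The passage from visceral to parietal endoderm is regarded as the first EMT of development.

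The promoters of an adhesion gene that fell with Dex and of a repressor whose signal was higher with Dex in both genotypes are shown to place the E-boxes that these factors recognise. Both sequences are the 250 bases before the RefSeq start site (GRCm38.p6), 5′ to 3′ on the gene's strand, with capitals marking the motif CAGGTG or its complement CACCTG. The *Epcam* window lies at chr17:87635729-87635978 on the plus strand, with E-boxes whose first base is at -187 and -19 from the start site.
Epcam promoter: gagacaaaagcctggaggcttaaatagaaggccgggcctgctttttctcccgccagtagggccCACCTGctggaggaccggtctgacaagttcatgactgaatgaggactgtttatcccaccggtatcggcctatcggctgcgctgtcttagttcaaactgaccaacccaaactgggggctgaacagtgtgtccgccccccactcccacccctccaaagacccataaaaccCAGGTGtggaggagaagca
The *Snai1* window lies at chr2:167537945-167538194 on the plus strand, with 1 E-box at -126.
Snai1 promoter: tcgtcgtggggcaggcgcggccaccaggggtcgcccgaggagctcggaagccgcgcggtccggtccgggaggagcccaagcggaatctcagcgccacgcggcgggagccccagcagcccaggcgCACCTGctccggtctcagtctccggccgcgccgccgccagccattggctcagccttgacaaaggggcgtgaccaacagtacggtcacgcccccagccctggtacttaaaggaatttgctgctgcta
The motif was found on either strand in 17.22% of 32851 promoter windows of 250 bases, and in these 2 of the 9 windows of the genes described, so a match is a description of letters and not of a bound site. A GATA motif, searched as AGATAA or TGATAA and their complements, was found in 16.6% of the windows and in none of the 9 windows of the 6 genes with a RefSeq promoter entry here. *Cdh1*, *Cdh2*, *Snai2* and *Zeb1* had no entry. The *Epcam* array probe, which covers chr17:88048972-88049800 (mm9) and so crosses an intron, is given because it reads spliced transcript.
Epcam probe: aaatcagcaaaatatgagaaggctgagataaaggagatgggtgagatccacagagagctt

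Signals are given below as a percent of the 75th percentile of the same array, written as relative signal, and changes as log2 values. Probe positions are those of the array design on mm9, and exon or UTR annotation was not used here. A gene was called where the Benjamini-Hochberg adjusted p over 25940 tested probes was under 0.05 and the change over 2-fold, in a limma fit of all 12 arrays. The 75th percentile of the signal was between 252.3 and 415.9 intensity units, and 41.7% to 52.3% of the spots of an array were well above background. *Sox7* had a relative signal of 224 ± 5.42 (SD, n = 3) in *Sox7* (+/-) ES and 558 ± 113 in *Sox7* (+/-) XEN-like cells, and was not well above background on any *Sox7* (-/-) array. The pluripotency genes *Nanog*, *Sox2* and *Fgf4* were well above background on all 6 ES arrays and on none of the 6 XEN-like arrays. Of 11 extraembryonic endoderm markers, 9 rose with Dex in *Sox7* (+/-) and 10 in *Sox7* (-/-) cells, beside 11% and 14.6% of all tested probes. Replicate 3 of *Sox7* (+/-) XEN-like cells stood apart. The lowest correlation between arrays of a group over the tested probes was 0.982 in that group against at least 0.993 in the other groups, and values without it are given where it moved a result most.

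*Cdh1* was brightest in both kinds of ES cells and fell with Dex in both genotypes. Its probe (chr8:109193812-109193871, plus strand, mm9, transcript NM_009864) gave relative signals of 1229.8, 1237 and 1159.5 in *Sox7* (+/-) ES cells and of 110.3, 88.6 and 64.6 after Dex. The *Sox7* (-/-) arrays gave 1385, 1411 and 1453 without Dex and 330.3, 277 and 304 with Dex. The 4 groups did not overlap, and their order was *Sox7* (-/-) ES, *Sox7* (+/-) ES, *Sox7* (-/-) XEN-like and *Sox7* (+/-) XEN-like. The log2 change with Dex was -3.82 ± 0.16 (SE) in *Sox7* (+/-) cells, a 14.1-fold fall (limma, adjusted p = 1.5e-08), and -2.22 ± 0.16 in *Sox7* (-/-) cells, a 4.67-fold fall (limma, adjusted p = 6.5e-07). Each array holds the *Cdh1* probe at 10 spots, and their SD within an array was between 0.04 and 0.14 on the log2 scale. *Cdh1* was chosen for its difference between the genotypes, which used the same XEN-like arrays as these responses. That difference is given only as a description: with *Sox7* lost, *Cdh1* signal was 3.53-fold higher among XEN-like cells (log2 1.82 ± 0.16) and 1.17-fold higher among ES cells (log2 0.23 ± 0.16).

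*Cdh2* signal was higher with Dex in *Sox7* (+/-) cells and lower with Dex in *Sox7* (-/-) cells. Its brighter probe (chr18:16747559-16747618, minus strand, mm9, transcript NM_007664) gave relative signals of 156, 174 and 161 in *Sox7* (+/-) ES cells and of 749.9, 704 and 344 after Dex. The *Sox7* (-/-) arrays gave 219, 196 and 219 without Dex and 116, 118 and 121 with Dex. The *Sox7* (+/-) XEN-like arrays were the brightest of the 12 and the *Sox7* (-/-) XEN-like arrays the dimmest, and the 4 groups did not overlap. With Dex *Cdh2* rose 3.46-fold in *Sox7* (+/-) cells (log2 1.79 ± 0.24, limma, adjusted p = 8.9e-05). Its change in *Sox7* (-/-) cells was -0.83 ± 0.24 on the log2 scale (limma, adjusted p = 0.011), under the 2-fold limit for a call, and with the slide as a block the adjusted p was 0.069. Replicate 3 of *Sox7* (+/-) XEN-like cells was the dimmest of its group, and without it the rise was 2.15 on the log2 scale. The other *Cdh2* probe gave changes of 1.77 and -0.85. Like *Cdh1*, *Cdh2* was chosen for its difference between the genotypes, which used the same XEN-like arrays as these responses. As a description, loss of *Sox7* went with 4.78-fold less *Cdh2* among XEN-like cells (log2 -2.26 ± 0.24) and 1.29-fold more among ES cells (log2 0.37 ± 0.24).

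**Figure D1:**
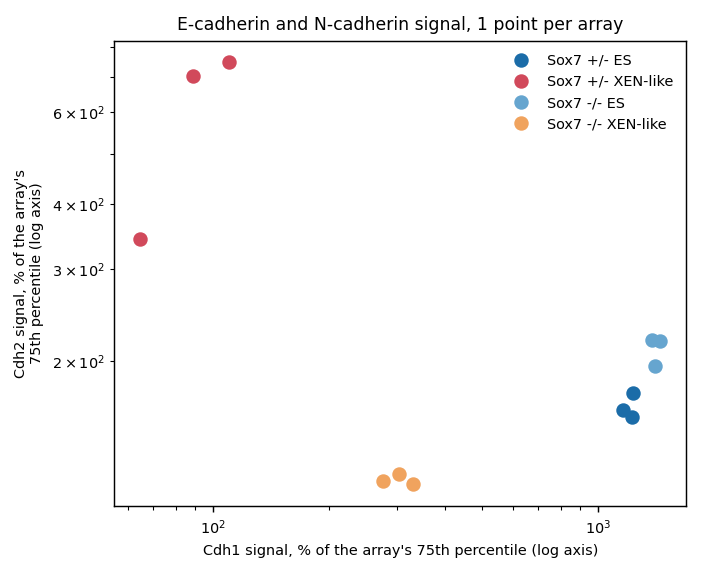
Relative signal of Cdh1 (x axis) against Cdh2 (y axis), both in percent of the 75th percentile of the array and on log axes, with 1 point for each of the 12 arrays coloured by group. Sox7 (+/-) XEN-like arrays lie at the lowest Cdh1 (64.6 to 110.3) and highest Cdh2 (344 to 749.9), while Sox7 (-/-) XEN-like arrays have intermediate Cdh1 (277 to 330.3) and the lowest Cdh2 (116 to 121).

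*Epcam*, which encodes an epithelial cell adhesion molecule, fell with Dex in both genotypes, as *Cdh1* did. Its relative signals were 228, 230.2 and 206 in *Sox7* (+/-) ES, 29.9, 34.9 and 28.1 in *Sox7* (+/-) XEN-like, 200.4, 206 and 180.4 in *Sox7* (-/-) ES and 62.9, 57.6 and 58.8 in *Sox7* (-/-) XEN-like cells. The ES arrays of both genotypes were above all XEN-like arrays, and the XEN-like groups did not overlap. With Dex it fell 7.17-fold in *Sox7* (+/-) cells (log2 -2.84 ± 0.10, limma, adjusted p = 3.4e-09) and 3.27-fold in *Sox7* (-/-) cells (log2 -1.71 ± 0.10, limma, adjusted p = 9.8e-08).

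*Vim*, which encodes the intermediate filament vimentin of mesenchymal cells, was bright in all 4 groups (probe at chr2:13504232-13504291, mm9). The relative signals were 1400.0, 1594 and 1529.7 in *Sox7* (+/-) ES, 3202, 3182 and 1405 in *Sox7* (+/-) XEN-like, 1615, 1519 and 1565 in *Sox7* (-/-) ES and 985, 1196 and 1080.0 in *Sox7* (-/-) XEN-like cells. The *Sox7* (+/-) groups overlapped, since replicate 3 with Dex lay among the ES arrays. The log2 change there was 0.69 ± 0.26 (limma, adjusted p = 0.042), under the 2-fold limit, and without replicate 3 it was 1.08 and called. The change in *Sox7* (-/-) cells was -0.53 ± 0.26 (limma, adjusted p = 0.10).

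**Figure D2:**
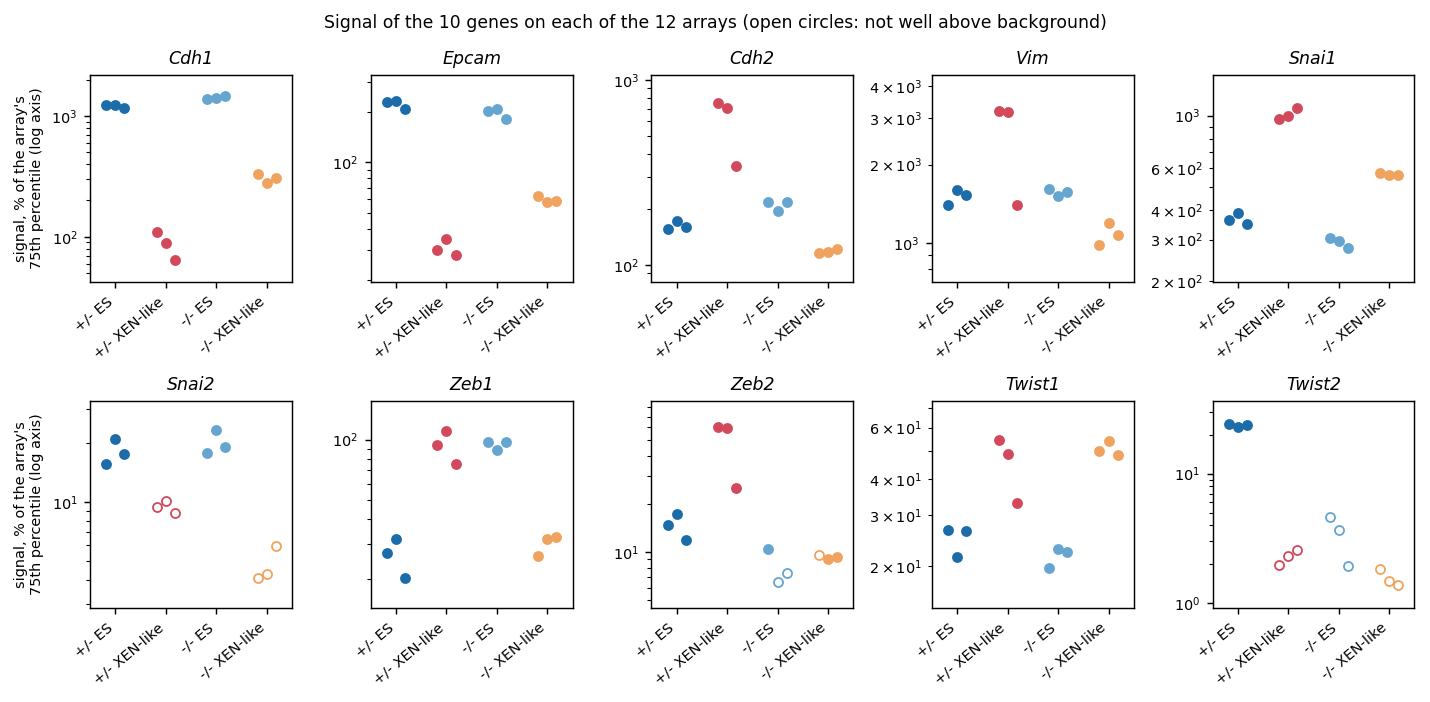
Relative signal of each of the 10 genes (y axis, percent of the 75th percentile of the array, log axis) on the 3 arrays of each group (x axis), with open circles where the probe was not well above background. Cdh1 and Epcam are lower with Dex in both genotypes, Cdh2 and Zeb1 are higher with Dex in Sox7 (+/-) and lower in Sox7 (-/-) cells, and replicate 3 of the Sox7 (+/-) XEN-like cells is the lowest of its group for Cdh1, Cdh2, Epcam, Vim, Snai2, Zeb1, Zeb2 and Twist1.

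Of the Snail family, *Snai1* was higher with Dex in both genotypes. *Snai1* encodes a zinc finger repressor of *Cdh1*, and its probe lies at chr2:167368073-167368132 (mm9). Its relative signals were 362, 388 and 348 in *Sox7* (+/-) ES, 972, 999 and 1072 in *Sox7* (+/-) XEN-like, 306, 297 and 277 in *Sox7* (-/-) ES and 575, 563 and 565 in *Sox7* (-/-) XEN-like cells. No groups overlapped. It rose 2.77-fold in *Sox7* (+/-) cells (log2 1.47 ± 0.07, limma, adjusted p = 3.7e-08). The 1.94-fold difference in *Sox7* (-/-) cells fell just short of the 2-fold limit (log2 0.95 ± 0.07, limma, adjusted p = 7.4e-07). The call in *Sox7* (+/-) cells was lost with spike-in scaling and with the deposited table (log2 0.99 with each).

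*Snai2*, the other Snail repressor, was dim and lower with Dex. Its probe lies at chr16:14709361-14709420 (mm9). Its relative signals were 15.6, 20.9 and 17.6 in *Sox7* (+/-) ES and 17.8, 23.2 and 19.2 in *Sox7* (-/-) ES cells, and it was not well above background on any of the 6 XEN-like arrays. *Snai2* passed the filter on dim probes only through the ES groups, where it was high, so no p is given for its falls. It was at least 2.67-fold lower with Dex in *Sox7* (-/-) cells, where it was called. The bound in *Sox7* (+/-) cells was at least 1.82-fold lower, and the fitted change of -0.93 ± 0.16 was under the 2-fold limit. These bounds set the ES mean against, on each XEN-like array, the higher of the lowest signal well above background and the probe's own signal. The *Sox7* (-/-) call was lost with normexp background correction (log2 -0.68) and with the deposited table (log2 -0.82).

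*Zeb1* showed the opposite course in the genotypes, already starting from different ES levels. *Zeb1* and *Zeb2* encode zinc finger factors that repress epithelial genes, and the *Zeb1* probe lies at chr18:5774613-5774672 (mm9). Its relative signals were 26.9, 31.8 and 20.2 in *Sox7* (+/-) ES, 93.5, 110.5 and 75.4 in *Sox7* (+/-) XEN-like, 97, 88.4 and 97.5 in *Sox7* (-/-) ES and 26.1, 31.5 and 32.3 in *Sox7* (-/-) XEN-like cells. The levels of *Sox7* (+/-) ES and *Sox7* (-/-) XEN-like cells overlapped, as did those of *Sox7* (+/-) XEN-like and *Sox7* (-/-) ES cells. With Dex it rose 3.56-fold in *Sox7* (+/-) cells (log2 1.83 ± 0.18, limma, adjusted p = 8.8e-06) and fell 3.16-fold in *Sox7* (-/-) cells (log2 -1.66 ± 0.18, limma, adjusted p = 1.5e-05). The rise was 0.98 on the log2 scale in the deposited table and then not called.

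*Zeb2* was read by a probe at chr2:44842774-44842833 (mm9) with relative signals of 14.8, 17.2 and 11.9 in *Sox7* (+/-) ES and 60.6, 59.7 and 25.1 after Dex. The *Sox7* (-/-) arrays gave 10.4, 6.52 and 7.41 without Dex and 9.67, 9.08 and 9.35 with Dex, with 1 ES and 2 XEN-like arrays well above background. The *Sox7* (+/-) XEN-like arrays were above all others. It rose 3.11-fold in *Sox7* (+/-) cells (log2 1.64 ± 0.32, limma, adjusted p = 0.0012), and the change in *Sox7* (-/-) cells was 0.23 with a 95% interval from -0.47 to 0.94 (limma, adjusted p = 0.53). Without replicate 3 of the *Sox7* (+/-) XEN-like cells the rise was 2.06, and the deposited table gave 0.71, which was then not called. The other *Zeb2* probes did not pass the filter on dim probes.

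The Twist genes encode basic helix-loop-helix factors of mesenchymal cells. *Twist1* (probe at chr12:34644411-34644470, mm9) had relative signals of 26.6, 21.4 and 26.5 in *Sox7* (+/-) ES, 54.3, 48.7 and 33.1 in *Sox7* (+/-) XEN-like, 19.6, 22.9 and 22.3 in *Sox7* (-/-) ES and 49.7, 54.1 and 48.2 in *Sox7* (-/-) XEN-like cells. The XEN-like arrays of both genotypes were above all ES arrays. It rose 2.35-fold in *Sox7* (-/-) cells (log2 1.23 ± 0.17, limma, adjusted p = 9.1e-05). In *Sox7* (+/-) cells the change was 0.84 ± 0.17 (limma, adjusted p = 0.0015), under the 2-fold limit, and without replicate 3 it was 1.06 and called. The *Sox7* (-/-) call was lost with normexp (log2 0.78) and with the deposited table (log2 0.81).

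*Twist2* (probe at chr1:93744519-93744577, mm9) was well above background only on the 3 *Sox7* (+/-) ES arrays, at 24.2, 22.9 and 23.5. It was at least 2.51-fold lower in *Sox7* (+/-) XEN-like cells and called, and normexp background correction gave -0.94 on the log2 scale, which was not called. It passed the filter on dim probes only through the *Sox7* (+/-) ES arrays, where it was high, so no p is given for this fall. Its nominal call in *Sox7* (-/-) cells compares signals of which none was well above background, so no fold is given.

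With Dex, 4 of the 10 genes (*Cdh2*, *Snai1*, *Zeb1*, *Zeb2*) rose in *Sox7* (+/-) cells, where 11% of all tested probes rose, and 3 (*Cdh1*, *Epcam*, *Twist2*) fell, where 14% of all tested probes fell. Among the responses of *Sox7* (-/-) cells 1 of 10 was a rise (*Twist1*), where 14.6% of all probes rose, and 5 were falls (*Cdh1*, *Epcam*, *Snai2*, *Zeb1*, and *Twist2*, which was below background), where 14.2% of all probes fell. With replicate 3 of the *Sox7* (+/-) XEN-like group left out, *Vim* and *Twist1* were also called, which made 6 rises and 3 falls in that genotype. The median log2 change of the 10 genes was 0.77 in *Sox7* (+/-) cells, beside 0.16 over all tested probes, and -0.94 in *Sox7* (-/-) cells, beside 0.07. Both medians include genes whose probes were below background in a group. *Snai2* and *Twist2* passed the filter on dim probes only through ES arrays, where they were high, so nothing is read from their falls. On bulk RNA, fewer cells expressing a gene and less RNA per cell cannot be told apart.

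**Figure D3:**
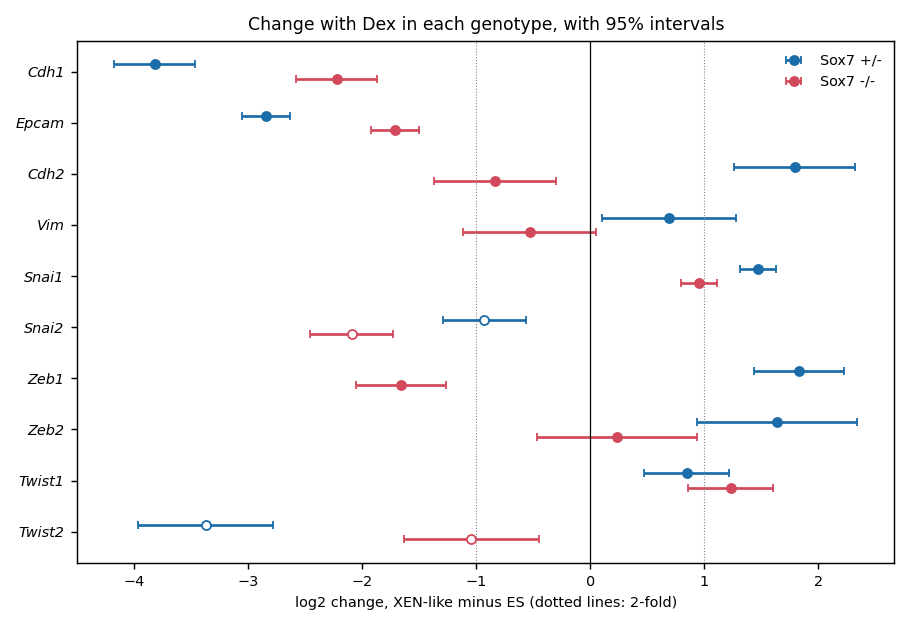
Fitted log2 change with Dex (x axis, XEN-like minus ES, points with 95% intervals) of the 10 genes (y axis) in Sox7 (+/-) and Sox7 (-/-) cells; open points mark a group below background on all 3 arrays, and dotted lines mark 2-fold. The 2 genotypes lie on opposite sides of 0 for Cdh2 (1.79 and -0.83), Zeb1 (1.83 and -1.66) and Vim (0.69 and -0.53).

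The genotypes were compared in XEN-like cells and in ES cells as a description, since the genes were chosen knowing that *Cdh1* and *Cdh2* differed between the genotypes. Among XEN-like cells, loss of *Sox7* went with lower signals of *Zeb2*, *Zeb1*, *Vim* and *Snai1*, by log2 -2.26 ± 0.32 for *Zeb2*, -1.62 ± 0.18 for *Zeb1*, -1.16 ± 0.26 for *Vim* and -0.84 ± 0.07 for *Snai1*, and *Epcam* was higher by 0.95 ± 0.10. These groups did not overlap. In the deposited table the differences were -0.98 for *Zeb2*, -0.86 for *Zeb1* and -0.69 for *Vim*, all under 2-fold. Without replicate 3 of *Sox7* (+/-) XEN-like cells they were -2.68, -1.77 and -1.56. Over all alternatives run, the difference was between -0.90 and -0.40 for *Snai1* and between 0.50 and 1.20 for *Epcam*. *Twist1* differed by 0.19 ± 0.17, its groups overlapped, and without that replicate the difference was -0.022. *Snai2* and *Twist2* were below background in both XEN-like groups. By the same limits 1 of the 10 genes (*Cdh1*) lay higher in *Sox7* (-/-) XEN-like cells, where 3.86% of all probes did, and 5 lay lower, where 3.65% did. The 5 include *Snai2*, and they were 1 (*Cdh2*) in the deposited table. Nothing is read from these counts, since *Cdh1* and *Cdh2* were chosen on this contrast.

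In ES cells 8 of the 10 genes differed by less than 2-fold between the genotypes. *Zeb1* was 3.64-fold higher in *Sox7* (-/-) ES cells (log2 1.86 ± 0.18), and *Twist2* was at least 2.60-fold lower. These are the 1 gene higher and 1 gene lower among the 10, beside 1.95% and 6.67% of all probes. *Twist2* passed the filter on dim probes only through the *Sox7* (+/-) ES arrays, where it was high. With normexp its difference was -0.93, under 2-fold, and 0 genes were then lower. *Snai1* differed by -0.32 ± 0.07 and *Epcam* by -0.18 ± 0.10. The change with Dex differed between the genotypes by log2 1.59 ± 0.22 for *Cdh1*, 1.13 ± 0.13 for *Epcam*, -2.63 ± 0.34 for *Cdh2* and -3.49 ± 0.25 for *Zeb1*. By the same limits 3 of the 10 genes lay higher in this difference, where 6.62% of all probes did, and 5 lower, where 3.17% did. Nothing is read from these counts either, since the contrast on which *Cdh1* and *Cdh2* were chosen is part of this difference. The 3 include *Twist2* and the 5 include *Snai2*, both of which rest on signals not well above background. With normexp the counts were 1 and 3, and with spike-in scaling 3 and 2. Without single arrays the lower genes were between 3 and 5, and those lost were *Vim* and *Zeb2*.

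**Figure D4:**
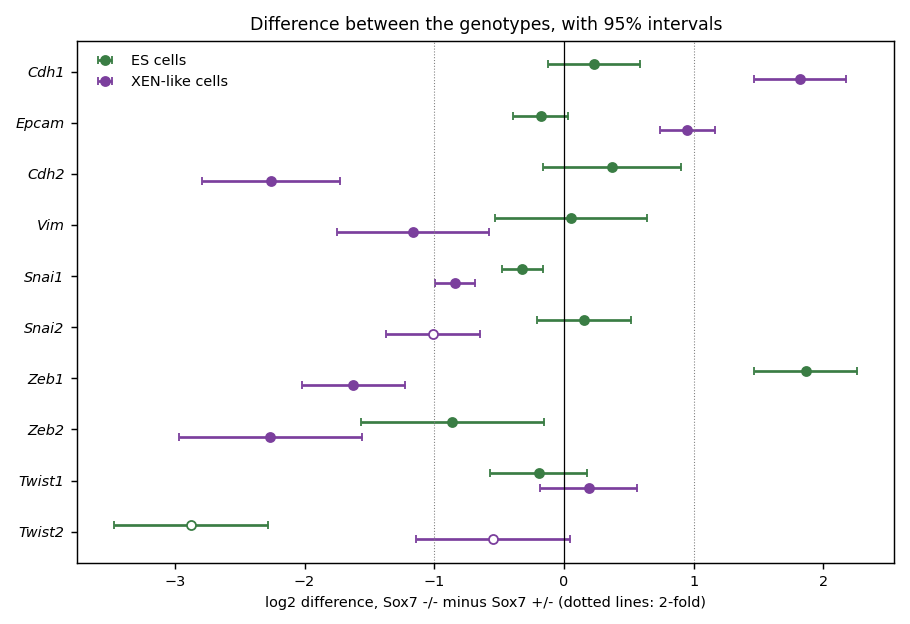
Fitted log2 difference between the genotypes (x axis, Sox7 (-/-) minus Sox7 (+/-), points with 95% intervals) of the 10 genes (y axis) in ES cells and in XEN-like cells; open points mark a group below background on all 3 arrays, and dotted lines mark 2-fold. In XEN-like cells Cdh1 (1.82) lies to the right and Cdh2 (-2.26), Zeb2 (-2.26) and Zeb1 (-1.62) to the left, while in ES cells Zeb1 (1.86) lies to the right.

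Slide and group were partly mixed. The 3 *Sox7* (-/-) ES arrays and replicate 1 of *Sox7* (-/-) XEN-like cells shared slide 1, and the other 8 arrays shared slide 2. Within slide 1 *Cdh1* changed with Dex by -2.10 and *Cdh2* by -0.86 in *Sox7* (-/-) cells. All *Sox7* (+/-) arrays lay on slide 2. Within slide 2 the XEN-like genotype difference was 1.76 for *Cdh1* and -2.24 for *Cdh2*. The ES groups shared no slide, and with the slide as a block the *Zeb1* difference between ES cells was 2.15.

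The lists that follow group other genes of the same biology by function, and where a gene or list has a pair of Dex values the first is of *Sox7* (+/-) and the second of *Sox7* (-/-) cells. A value given for 1 genotype only does not mean that the gene was unchanged in the other. Over all tested probes 11% rose and 14% fell with Dex in *Sox7* (+/-) cells and 14.6% rose and 14.2% fell in *Sox7* (-/-) cells, and the count of each list stands beside these shares. Between the genotypes 1.95% of all probes were higher and 6.67% lower in *Sox7* (-/-) ES cells, and 3.86% higher and 3.65% lower in *Sox7* (-/-) XEN-like cells. Where a gene of a list passed the filter on dim probes only through ES arrays, where it was high, nothing is read from its fall. Of 29 tight junction, desmosome, keratin and protease genes of epithelia, 1 rose and 16 fell with Dex in *Sox7* (+/-) cells, with a median log2 change of -1.15 beside 0.16 over all probes. *Cgn*, which encodes the tight junction protein cingulin, fell by 3.61 on the log2 scale and *Tjp3*, a tight junction scaffold, fell by 3.26, whereas the keratin gene *Krt19* rose by 1.27. With *Sox7* lost, 10 of the 29 rose and 7 fell, with a median of 0.17 beside 0.07. The claudin genes *Cldn6* and *Cldn7*, which encode tight junction strand proteins, rose by 4.58 and 3.53, and *Cldn3* fell by 1.96. *Cldn6* had mean relative signals of 334 in *Sox7* (+/-) ES, 307 in *Sox7* (+/-) XEN-like, 42.2 in *Sox7* (-/-) ES and 1010.5 in *Sox7* (-/-) XEN-like cells. The lowest and the highest level of *Cldn6* were thus both in *Sox7* (-/-) cells.

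The same list was lower in *Sox7* (-/-) ES cells, where 15 of 29 genes were called lower, beside 6.67% of all probes, with a median of -1.03 beside 0.10 over all probes. *Krt18*, which encodes a keratin of simple epithelia, was lower by log2 -3.01 and *Cldn6* by -2.98. Among XEN-like cells 12 were higher with *Sox7* lost, beside 3.86% of all probes, and 1 was lower, with a median of 0.19 beside 0.00. *Ap1m2*, an epithelial adaptor of protein sorting, was higher by 2.21, *Tjp3* by 1.89, and the desmosome gene *Pkp2* was lower by -1.35. The change with Dex differed between the genotypes in 18 of 29 genes, all 18 upward in *Sox7* (-/-) cells (*Cldn6* 4.75, *Cldn7* 4.10), where 6.62% of all probes differed upward. The calls lower in *Sox7* (-/-) ES cells were between 10 and 15 genes under other scalings, background correction, a slide block or without replicate 3, and the calls higher in XEN-like cells between 8 and 13.

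Markers of other cell types moved with these differences. Of 10 visceral endoderm markers 8 were tested, and 6 were higher in XEN-like cells when *Sox7* was lost, beside 3.86% of all probes. Among them were *Apom* (log2 4.02) and *Amn* (3.19). Between ES cells 4 were lower with *Sox7* lost, as were 5 of 6 parietal endoderm markers (median log2 -1.52), beside 6.67% of all probes. *Thbd* was lower by -2.37. Between XEN-like cells 0 of the 6 parietal markers were called higher and 0 lower (median log2 -0.44), beside 3.86% and 3.65% of all probes. The summed relative signal of the 6 parietal markers, 89301 to 92517 in *Sox7* (+/-) ES and 74055 to 84280 in *Sox7* (-/-) ES cells, was mostly that of *Sparc*. The sum of 6 trophectoderm markers was 812 to 836 in *Sox7* (+/-) ES and 419 to 444 in *Sox7* (-/-) ES cells. *Tfap2c* (mean 429) and *Eomes* (175) held much of the sum in *Sox7* (+/-) ES cells, and *Elf5* was not well above background on any array. In XEN-like cells the order of the genotypes in this sum was turned, with 216 to 290 in *Sox7* (+/-) and 547 to 617 in *Sox7* (-/-) cells. There 3 of 5 tested trophectoderm markers were higher with *Sox7* lost, beside 3.86% of all probes. The sum of 6 primitive streak and mesoderm markers was 189 to 215 in *Sox7* (+/-) ES and 63.3 to 70.02 in *Sox7* (-/-) ES cells, and *T*, a defining marker, was well above background in *Sox7* (+/-) ES cells only. Of 10 pluripotency markers 3 were called higher with *Sox7* lost among ES cells, beside 1.95% of all probes. All 10 had a higher signal there, with a median of 0.70. Among XEN-like cells 2 were called higher, beside 3.86% of all probes. Only 5 of the 10 had a higher signal there, with a median of 0.14. *Esrrb* had differences of log2 1.28 among ES and 4.63 among XEN-like cells. The list as a whole did not share the difference of *Esrrb* among XEN-like cells. The part of these markers in the results was not tested. Of 8 fibroblast markers 6 in *Sox7* (+/-) and 7 in *Sox7* (-/-) XEN-like cells were below background on all 3 arrays, *Dcn* and *Lum* among them.

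Among 8 epithelial transcription and splicing factors, 4 fell in *Sox7* (+/-) cells with Dex, beside 14% of all probes (median log2 -1.03), while 2 rose and 3 fell in *Sox7* (-/-) cells (median 0.37). The Grainyhead genes *Grhl2* and *Grhl3*, which maintain epithelial gene expression, were among the falls in both genotypes. *Grhl2* fell by 4.24 in *Sox7* (+/-) and fell by 2.39 in *Sox7* (-/-) cells, and *Grhl3* fell by 4.03 and fell by 3.54. *Esrp2*, an epithelial splicing regulator, rose by 1.66 in *Sox7* (-/-) cells. Among XEN-like cells 4 were higher with *Sox7* lost, with *Elf3* higher by 1.29 and *Grhl3* by 1.18. With normexp or the other settings tried this count was between 1 and 4. Between ES cells 3 were lower, *Grhl2* by -1.60 and *Esrp1* by -1.31.

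Of 10 further EMT transcription factors 6 rose and 3 fell in *Sox7* (+/-) cells, and 5 rose and 3 fell in *Sox7* (-/-) cells, with medians of 1.64 and 0.78 beside 0.16 and 0.07 over all probes, of which 11% and 14.6% rose and 14% and 14.2% fell. *Foxc1*, a forkhead factor, rose by 3.83 in *Sox7* (+/-) cells, and *Klf8*, a Krüppel-like factor, rose by 2.46 and 2.78. The chromatin protein gene *Hmga2* fell by 1.64 and fell by 2.13, and the homeobox gene *Prrx2* fell by 3.30 in *Sox7* (-/-) cells. *Foxc1* was also higher with Dex in *Sox7* (-/-) cells, at a mean of 31.4 beside 3.64 in ES cells, which was not well above background. *Prrx2* was also lower with Dex in *Sox7* (+/-) cells, at 8.22, not well above background, beside 171 in ES cells. Between XEN-like cells *Foxc1* was lower with *Sox7* lost, by -1.74.

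**Figure D5:**
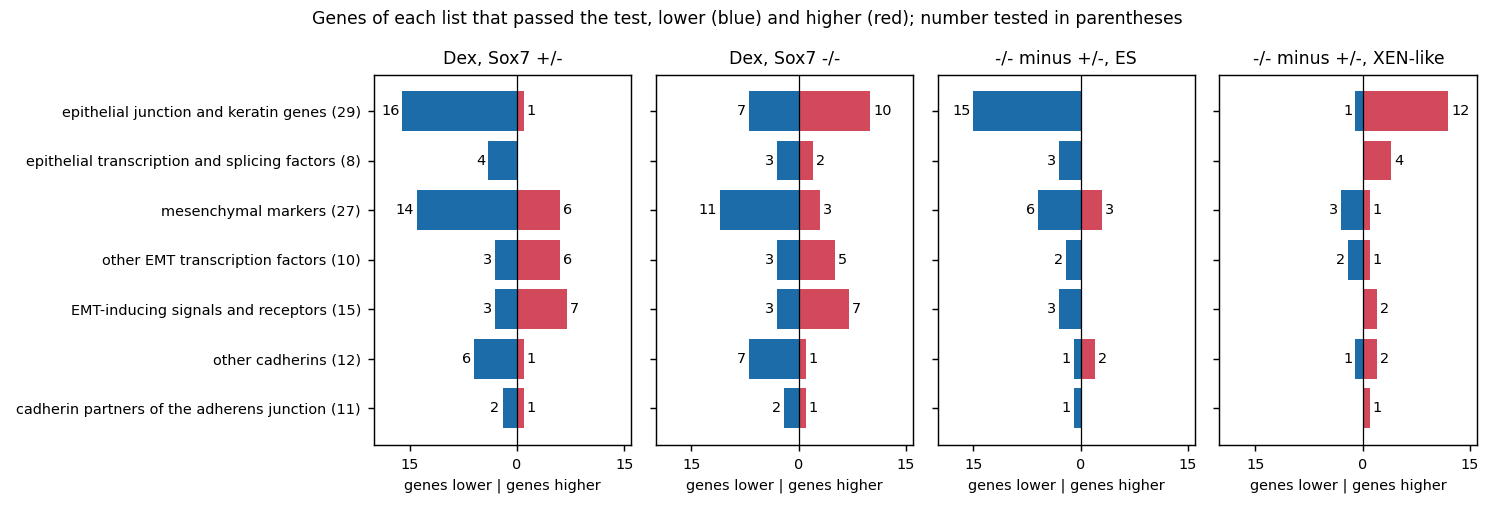
Number of genes of 7 lists (y axis, number tested in parentheses) called lower (blue, to the left) and higher (red, to the right) on the x axis, for the change with Dex in each genotype and the difference between genotypes in ES and in XEN-like cells. Of the 29 epithelial junction and keratin genes 16 fell in Sox7 (+/-) and 10 rose in Sox7 (-/-) cells.

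Of 27 tested mesenchymal markers 14 fell and 6 rose in *Sox7* (+/-) and 11 fell and 3 rose in *Sox7* (-/-) cells, with medians of -1.71 and -0.63. Over all probes 14% fell and 11% rose in *Sox7* (+/-) cells, and 14.2% fell and 14.6% rose in *Sox7* (-/-) cells. *S100a4*, *Col1a1*, *Spp1*, *Mmp2*, *Thy1*, *Pdgfrb* and *Wnt5b* passed the filter on dim probes only through ES arrays, where they were high. They were not well above background on any XEN-like array, so nothing is read from the falls or the medians. The *Sox7* (+/-) median was -0.36 with normexp, -0.91 in the deposited table and -1.20 without replicate 3 of the XEN-like cells, and the falls with normexp were 11 and 7. The lysyl oxidase gene *Loxl2* rose by 3.53 and 4.14, the actin gene *Acta2* fell by 3.57 and the actin-binding gene *Tagln* fell by 3.32 in *Sox7* (+/-) cells, and the fibronectin gene *Fn1* fell by 4.19 in *Sox7* (-/-) cells. *Fn1* was also lower with Dex in *Sox7* (+/-) cells, with mean relative signals of 6632 in ES and 911 in XEN-like cells. The elastic fibre gene *Fbn1* rose by 2.27 in *Sox7* (+/-) cells and *Cald1*, which encodes the actin-binding caldesmon, by 2.25 in *Sox7* (-/-) cells. *Cald1* was also higher with Dex in *Sox7* (+/-) cells, with mean relative signals of 292 in ES and 1009 in XEN-like cells. Between XEN-like cells 1 marker was higher and 3 were lower in *Sox7* (-/-) cells, *Cald1* by -1.68 and *Fbn1* by -1.40. Between ES cells 3 were higher and 6 lower, with the osteopontin gene *Spp1* higher by 1.85 and *Tagln* lower by -2.91.

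The cadherin family did not move as 1 group. Of 12 other cadherins 1 rose and 6 fell in *Sox7* (+/-) cells, and 1 rose and 7 fell in *Sox7* (-/-) cells, with medians of -1.14 and -1.15, beside 14% and 14.2% of all probes that fell. With normexp the falls were 2 and 3 and the medians -0.16 and -0.47, and in the deposited table the falls were 3 and 4. *Cdh3*, *Cdh9*, *Cdh13* and *Cdh22* passed the filter on dim probes only through ES arrays, where they were high. The list includes these genes, so nothing is read from its falls or its medians. *Cdh6*, which encodes kidney cadherin, rose in both, by 3.32 ± 0.15 and 5.24 ± 0.15. *Cdh3*, P-cadherin, fell by 3.05 and fell by 2.77, *Cdh4*, retinal cadherin, fell by 2.69 in *Sox7* (+/-) cells, and *Cdh5*, VE-cadherin, fell by 2.49 in *Sox7* (-/-) cells. Between XEN-like cells *Cdh4* was higher by 1.70 with *Sox7* lost and *Cdh5* was lower by -1.03. Of 11 catenins, nectins and other cadherin partners, 1 rose and 2 fell with Dex in each genotype, and the nectin gene *Pvrl3* fell by 1.23 and fell by 1.99. The medians of these partners, -0.20 and -0.07, lay below those of all probes.

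Among 15 genes of signals that induce EMT, 7 rose and 3 fell with Dex in each genotype, with medians of 1.01 and 0.83 beside 0.16 and 0.07 over all probes. Rises took 11% and falls 14% of all probes in *Sox7* (+/-) cells, and 14.6% and 14.2% in *Sox7* (-/-) cells. *Pth1r*, the receptor of parathyroid hormone-related protein that promotes parietal endoderm formation, rose by 2.19 and 4.28, and *Tgfbr3*, a TGF-beta co-receptor, rose by 2.37 and 4.24. The Notch ligand gene *Jag1* fell by 3.45 and fell by 3.05, and *Smad7*, an inhibitor of TGF-beta signalling, fell by 2.62 and fell by 2.13. Between XEN-like cells the inhibitory Smad genes *Smad6* and *Smad7* were higher with *Sox7* lost, by 2.03 and 1.21. With spike-in scaling or the other settings tried, the rises in *Sox7* (+/-) cells were between 3 and 8 genes.

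Genes whose pattern over the 12 arrays lay nearest to that of *Cdh1* were found by the root mean square difference of log2 levels centred on each gene's mean, among 18963 genes. The nearest named genes were *Tcf23* and *Klk8*, at 0.22 for each, and *Spata13* at 0.26 (log2 units). The nearest to *Cdh2* were *Stk39* at 0.36, *Serpini1* at 0.41 and *St3gal4* at 0.42. These distances are descriptions without a test.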

How the data were processed

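Total RNA of the 4 groups was hybridized by the authors to 12 arrays. The intensity values they deposited for each array come from Agilent Feature Extraction 10.7.3.1, which removes background and spatial trends within an array and sets no common scale across arrays. Other deposited columns are 0 or 1 marks for outlier, saturated and dim spots. A further table of deposited intensity values matched the mean spot signal to within 0.498% and still contains background. From these deposited values log2 signals were computed relative to each array's 75th percentile, leaving out outlier spots and averaging the spots of a probe. Probes were kept if well above background on each of the 3 arrays of some group, which left 25940. All 12 arrays entered a single limma 3.58.1 fit (R 4.3.3) with a mean for each group, without a block, and p-values were adjusted by Benjamini-Hochberg. A gene was read by its brightest probe. The 5 comparisons were Dex against no Dex in either genotype, genotype against genotype with and without Dex, and the difference of the Dex responses.

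The genes and the 7 gene lists were chosen with earlier results of these data known, so no list was tested as a set. For the same reason no p is given between genotypes for the 10 genes or for genes of the lists. From each list at most 2 called rises and 2 called falls were named per comparison, the largest among genes not below background on all arrays of a group. Not every gene that met this rule is reported here. The settings tried besides were normexp (offset 50), quantile normalization, scaling on 8 of 10 spike-in probes or on the median, the deposited table, stricter and looser filters on dim probes, averaging a gene's probes, an intensity trend, a fit of the compared arrays alone, blocks for replicate number or slide, single slides, and the omission of each array. The deposited table scaled to the 75th percentile, and the settings for the lists, were chosen after seeing the data. Simulated data with known changes were used to test the fit. The number of arrays limits the precision. Same-numbered arrays of different groups deviated together with correlations between -0.05 and 0.13, so numbers were not taken as pairs.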

Additional observations from a re-analysis of the deposited data

Results flagged for a closer look

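*Cdh2* and *Zeb1* differed from their own ES cells in opposite directions in the genotypes, on every array. For *Cdh2* all 3 *Sox7* (+/-) XEN-like arrays were above all 3 *Sox7* (+/-) ES arrays and all 3 *Sox7* (-/-) XEN-like arrays below all 3 *Sox7* (-/-) ES arrays, and the responses differed by -2.63 on the log2 scale. For *Zeb1* the responses differed by -3.49. No test of these differences is given, because the genes were selected on the contrast between the genotypes.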

How the results depend on the processing

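No called difference of the 10 genes changed sign under the alternatives run. Differences between the genotypes that were not called changed sign for *Vim* in ES cells (0.06, and -0.092 with quantile normalization and -0.097 with spike-in scaling), and in XEN-like cells for *Twist1* (0.19, and -0.022 without replicate 3 of *Sox7* (+/-) cells) and *Twist2* (-0.55, and 0.12 in the deposited table). The XEN-like genotype difference of *Cdh1*, 1.82 on the log2 scale, was 1.58 with normexp background correction and 2.07 with spike-in scaling, and that of *Cdh2*, -2.26, was -1.75 in the deposited table. Leaving out each array in turn gave 1.62 to 2.002 for *Cdh1* and -2.62 to -2.05 for *Cdh2*, the values farthest below being those without replicate 3 of *Sox7* (+/-) XEN-like cells. The genes rising with Dex in *Sox7* (+/-) cells were 1 in the deposited table instead of 4. In *Sox7* (-/-) cells those rising were 0 instead of 1 with normexp, in the deposited table and in that table at the 75th percentile, since *Twist1* was then under 2-fold (adjusted p at most 8.3e-05, limma). Those falling were 3 instead of 5 with the same settings and with a filter on all 12 arrays. For the 10 genes singly, of 384 alternative values of the Dex responses 359 kept sign and call, 20 lost and 5 gained the call. Of 621 values of the genotype comparisons 556 kept both by the same limits, 57 fell short of the limits, 4 newly passed them and 4 changed sign. With a replicate block, which was not taken as a pairing, the *Cdh1* difference was 1.82, and no call of the 10 genes changed. Spike-in scaling moved the median of all probes from 0.16 to -0.33 in the *Sox7* (+/-) Dex response, from 0.00 to 0.24 between XEN-like cells and from -0.09 to 0.31 in the difference of the responses. The *Sox7* (+/-) Dex response lay wholly within slide 2, and the ES genotype difference has no within-slide value. Signal over background limits *Snai2*, *Twist2* and *Zeb2*.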
